A study of Mus musculus with 12 samples.

Results

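Cytochrome oxidase (complex IV) and ATP synthase (complex V) are the last enzymes of mitochondrial oxidative phosphorylation, and most of their subunits are encoded in the nucleus. Their nuclear genes were taken as all genes whose symbol starts with Cox4, Cox5, Cox6, Cox7, Cox8 or Atp5, without the genes named as pseudogenes by the ending -ps. These were 36 of 49585 genes in the data, with 19 Cox and 17 Atp5 genes. The choice used only the symbols and no measured value, but it was made with earlier results of these data known. All but 1 are annotated as protein coding, and the exception is Cox6c2, a processed pseudogene of the Cox6c gene. Atp5s is included by its symbol, but its current RefSeq symbol is Dmac2l, a factor linked to the assembly of respiratory complexes and not a subunit of ATP synthase.

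RNA-seq was performed on bone marrow HSCs of 6 WT and 6 Pon2-/- mice, all C57BL/6J and 10 to 14 weeks old, to compare the transcriptomes of both genotypes. Pon2 codes for paraoxonase 2, an antioxidative enzyme, and the mutant allele carries a gene trap with a β-geo cassette and loxP sites in intron 2 in all cells of the animal. The WT mice came from a commercial breeder, and neither a shared litter nor the sex of the mice is given. HSCs were sorted as Lin-, Sca1+, ckit+, CD135- and CD150+ cells, a gate labelled as LT-HSCs that also holds MPP2 cells according to the study's methods. From each mouse, 8 wells with 10 cells were used, and the counts are given per mouse. No treatment was applied. Smart-seq2 amplifies full-length cDNA and keeps no strand information.

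The depth was between 12967791 and 24228280 counts per sample, so that 3 counts, the limit set for a gene without counts, correspond to 0.124 to 0.231 counts per 1000000 counts (CPM). This limit covers counting error only, since PCR copies are not independent molecules. Pon2 was at 56.4 to 202 CPM in WT and at 1.16 to 33.1 CPM in Pon2-/- HSCs, without overlap (log2 fold change -2.13, edgeR adjusted p = 0.586, DESeq2 adjusted p = 0.0104). All 11 HSC marker genes had counts, with a sum of 2277 to 2860 CPM in WT and 2204 to 2787 CPM in Pon2-/- HSCs. The summed markers of granulocytes and monocytes (6 of 6 with counts) varied more, from 564 to 7100 CPM in WT and from 546 to 11053 CPM in Pon2-/- HSCs. Those of B cells (6 of 6 with counts) were at 25.5 to 319 CPM and 58.8 to 542 CPM, and those of megakaryocytes (6 of 6) at 165 to 240 CPM and 125 to 315 CPM. T cell markers (3 of 5 with counts) were at 0.0424 to 39.7 CPM and 12.5 to 57.7 CPM, with Cd3e and Cd8a at 0 in all samples. Lck alone was at 0 to 39.7 CPM in WT and at 12.5 to 57.7 CPM in Pon2-/- HSCs. Cd3d reached at most 2.76 CPM and Cd3g at most 0.0601 CPM in any sample. Flt3, the gene of the excluded surface protein CD135, was at 4.59 to 49.3 CPM in WT and at 26.7 to 65.0 CPM in Pon2-/- HSCs. The part of these other markers in the values below was not tested.

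Cytochrome oxidase transfers electrons from cytochrome c to oxygen, and ATP synthase uses the proton gradient built by the respiratory chain to make ATP. The catalytic core of cytochrome oxidase and part of the proton channel of ATP synthase are encoded by mitochondrial DNA, while the nuclear subunits surround the core, regulate it or build the rotating and stator parts of ATP synthase. Several nuclear subunits exist as paralogs with tissue-specific use, such as the muscle forms Cox6a2, Cox7a1 and Cox8b, the testis forms Cox6b2, Cox7b2 and Cox8c, and the lung form Cox4i2. HSCs are known to rely strongly on glycolysis and to hold their mitochondria in a state of low activity.

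Promoter sequences are shown for 2 of the 4 paralog pairs with a window for both genes, those in which the more widely used gene held searched letters and the restricted gene did not, and the other pairs are given after them. RefSeq promoter windows (250 bases before to 50 bases after the start, GRCm38.p6) were matched by symbol or synonym for 28 of the 36 genes. Letters on either strand were searched for 3 factors known to act on genes of oxidative phosphorylation, with GCGCA and GCGC separated by 1 base of any kind for NRF1, CCGGAAG for GABPA (NRF2) and AAGATGGC for YY1. The letters of GABPA end with the AAG with which those of YY1 begin. The windows below are written 5′ to 3′ on the strand of the gene, and capitals mark GABPA matches. They lie at chr19:7217567-7217866 for Cox8a, chr7:140900397-140900696 for Cox8b, chr7:30626065-30626364 for Cox6b1 and chr7:4753045-4753344 for Cox6b2, all on the minus strand.
Cox8a: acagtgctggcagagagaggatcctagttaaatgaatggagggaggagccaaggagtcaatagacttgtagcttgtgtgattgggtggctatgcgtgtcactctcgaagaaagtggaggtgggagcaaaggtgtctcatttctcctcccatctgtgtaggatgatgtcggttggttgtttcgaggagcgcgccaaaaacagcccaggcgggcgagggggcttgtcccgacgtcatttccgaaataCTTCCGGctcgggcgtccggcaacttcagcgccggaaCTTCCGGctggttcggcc
Cox8b: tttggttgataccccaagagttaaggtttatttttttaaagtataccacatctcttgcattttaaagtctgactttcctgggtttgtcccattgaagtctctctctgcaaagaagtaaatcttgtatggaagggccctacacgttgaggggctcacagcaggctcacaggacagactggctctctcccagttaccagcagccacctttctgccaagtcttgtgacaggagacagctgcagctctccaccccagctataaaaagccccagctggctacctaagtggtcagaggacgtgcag
Cox6b1: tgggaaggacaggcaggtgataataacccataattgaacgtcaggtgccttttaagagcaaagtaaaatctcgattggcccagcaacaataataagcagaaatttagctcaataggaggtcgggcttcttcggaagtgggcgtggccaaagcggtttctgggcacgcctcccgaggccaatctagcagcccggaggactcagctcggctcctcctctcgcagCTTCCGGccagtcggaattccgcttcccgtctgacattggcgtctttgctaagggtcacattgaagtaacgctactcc
Cox6b2: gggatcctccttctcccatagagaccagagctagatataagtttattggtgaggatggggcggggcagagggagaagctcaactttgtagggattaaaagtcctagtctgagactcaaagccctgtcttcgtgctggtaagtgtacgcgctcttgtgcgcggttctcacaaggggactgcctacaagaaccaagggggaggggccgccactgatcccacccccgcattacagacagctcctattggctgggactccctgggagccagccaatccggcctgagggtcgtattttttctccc

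The window of Cox8a held 2 GABPA matches and 19 CpG dinucleotides, while that of Cox8b, which had no counts in any sample, held none of the searched letters and 2 CpG dinucleotides. The window of Cox6b1 held 1 GABPA match and 17 CpG dinucleotides, and that of Cox6b2 held no match and 10 CpG dinucleotides. The median over all 32851 RefSeq windows was 7 CpG dinucleotides. GABPA letters were present in a window of 8 of the 28 genes (28.6%), compared with 9.93% of all 27025 genes with a window. NRF1 letters were present for 7 genes (25.0%, compared with 5.19%) and YY1 letters for 3 genes (10.7%, compared with 3.19%). The genes were not matched for CpG dinucleotides, which the letters of NRF1 and GABPA themselves contain. The part of CpG dinucleotides in these percentages was not tested. A match describes the letters of the window and does not show that the factor binds there. The other pairs did not show this contrast. None of the searched letters occurred in the windows of Cox7a2 (20 CpG dinucleotides) and Cox7a1 (7), nor in those of Cox7b (5) and Cox7b2 (10), although Cox7a2 and Cox7b were counted in all samples, Cox7a1 only at a low level and Cox7b2 not at all.

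A second set of sequences is shown because the gene they come from, Atp5l, was counted at a low level. It codes for subunit g, a small protein at the place where ATP synthase forms dimers, and has 13 annotated copies with 90% or more identity to its main transcript over 50% or more of the length. The first 60 coding bases (of 309) are written below from the GENCODE M21 transcripts, 5′ to 3′, with differences from Atp5l in capitals. Gm10221, Atp5l2-ps and Gm6822 are processed pseudogenes.
Atp5l: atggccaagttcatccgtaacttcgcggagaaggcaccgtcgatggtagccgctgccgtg
Gm10221: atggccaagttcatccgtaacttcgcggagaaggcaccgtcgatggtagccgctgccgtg
Atp5l2-ps: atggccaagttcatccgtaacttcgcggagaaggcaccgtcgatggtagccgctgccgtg
Gm6822: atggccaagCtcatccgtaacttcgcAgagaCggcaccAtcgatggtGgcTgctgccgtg

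Gm10221 and Atp5l2-ps did not differ from Atp5l in these bases, and Gm6822 differed at 6 of them. Gm10221 was 100% identical to Atp5l over 309 bases. Of all windows of 50 bases in the Atp5l transcript, 84.8% were also found in transcripts of other genes.

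HSCs of both genotypes expressed the widely used forms of nearly all subunits. Cox6a2, Cox7b2, Cox8b and Cox8c had 0 counts in all samples, and 31 genes (14 Cox and 17 Atp5 genes) passed edgeR's filter on low counts and were compared between the genotypes. Cox genes took 0.311% to 0.415% and Atp5 genes 0.503% to 0.720% of all counts of a sample. As the RNA was pooled over cells, fewer cells that express a gene cannot be told apart from less RNA per cell.

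None of the 31 genes differed between WT and Pon2-/- HSCs with edgeR's quasi-likelihood test (adjusted p below 0.05 and more than 2-fold), while 24 of 11848 tested genes (0.203%) passed. An adjusted p of 1.0 was the lowest among the 31 genes. DESeq2 called 0 of the 31 genes and 304 of 17220 genes (1.77%), and limma voom with quality weights also called 0 of the 31. The 17220 genes include genes below edgeR's filter, which the 31 genes passed. Among the 11848 genes tested by edgeR, DESeq2 called only 38 as higher and 36 as lower in Pon2-/- HSCs. At an unadjusted p below 0.05, edgeR gave 1 of the 31 genes, Cox5b, compared with 371 of all tested genes (3.13%). In none of the 31 genes were the genotypes without overlap, compared with 75 of all tested genes (0.633%). The log2 fold changes (Pon2-/- over WT) were between -0.56 for Atp5l and 0.54 for Cox6b2, and 19 of 31 were below 0, compared with 50.8% of all tested genes. Their median was -0.05, with -0.10 for Cox genes and 0.00 for Atp5 genes, and it was -0.01 over all tested genes.

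The data limited the size of these differences more closely than for most genes. The 95% interval of the log2 fold change lay between -1 and 1, that is within a 2-fold change, for 27 of 31 genes (87.1%), compared with 3027 of 11848 tested genes (25.5%). The 4 others were Cox6b2, Cox4i2, Cox7a1 and Atp5l. The interval reached a median of 0.36 to either side for the 31 genes and 1.23 for all tested genes. These intervals were not compared at a like level of counts, and the part of the level in this difference was not tested. Samples of the same genotype differed little in these genes, with a median coefficient of variation of 17.7% in WT and 21.3% in Pon2-/- HSCs. Over all tested genes, it was 53.5% and 55.3%. Among the 1392 tested genes with 126 to 407 CPM, it was 25.6% and 26.4%, compared with 17.7% and 17.8% for the 15 Cox and Atp5 genes within this range.

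**Figure D1:**
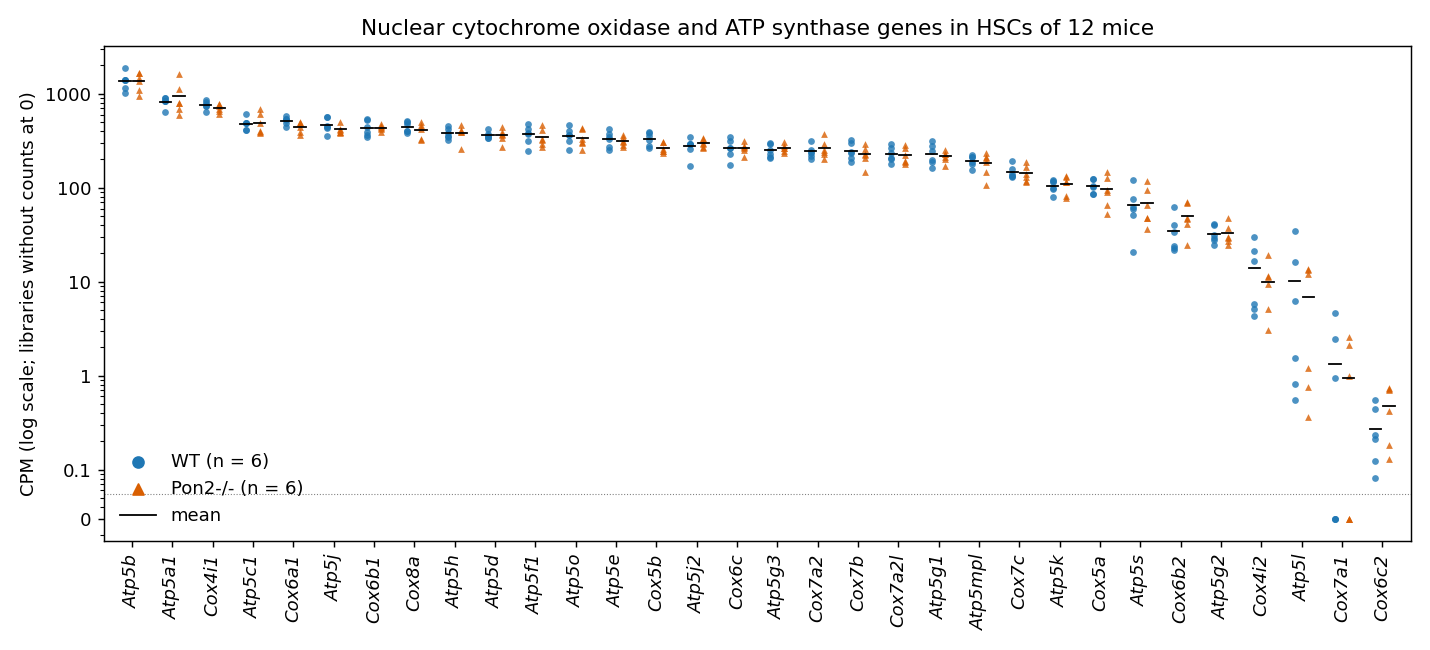
CPM (log scale) of the 32 Cox and Atp5 genes with counts in single samples of WT (circles, n = 6) and Pon2-/- HSCs (triangles, n = 6), with the mean of each group as a line and samples without counts at 0. The genes run from Atp5b at the left to Cox6c2 at the right, the genotypes overlap in each gene, and the samples of Cox4i2, Atp5l and Cox7a1 spread the most.

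**Figure D2:**
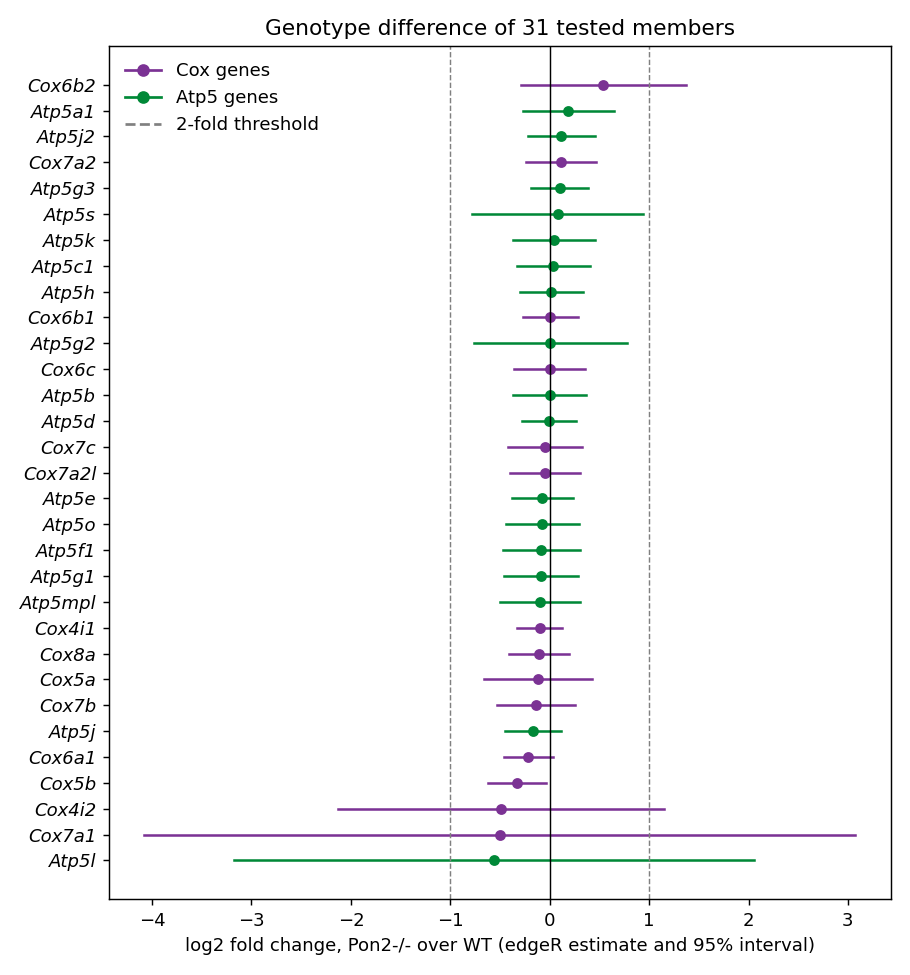
Log2 fold change of Pon2-/- over WT HSCs (points) with the 95% interval of edgeR (lines) for the 31 tested genes, Cox genes in purple and Atp5 genes in green, and dashed lines at a 2-fold change. The interval crosses 0 for all genes but Cox5b and crosses a dashed line for Cox6b2, Cox4i2, Cox7a1 and Atp5l.

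Cox4i1 codes for the widely used form of subunit IV, where ATP binds to inhibit the enzyme, and had the highest level of all members per kb of the main transcript. It was at 646 to 847 CPM in WT HSCs (median 753) and at 605 to 786 CPM in Pon2-/- HSCs (median 712). The samples overlapped over most of this range, with a log2 fold change of -0.10 (standard error, SE, 0.10). Per kb of the main transcript, its level was 1017 ± 94.6 CPM in WT HSCs (SD, n = 6), compared with 907 ± 80.04 for Cox6a1 and 810 ± 101 for Cox8a, and these neighbours in the order overlapped in their spread. The order depends on the length used, since by the length of all exons Cox6a1 (738 CPM per kb of exon) was above Cox4i1 (489), and the levels below are per kb of the main transcript unless exons are named. Of the 1550 exonic bases of Cox4i1, 154 are shared with Emc8.
Cox4i2, the form of subunit IV known from lung and from low oxygen, was at 16.6, 5.17, 4.27, 5.79, 30.05 and 21.4 CPM in WT replicates 1 to 6 and at 5.14, 11.2, 11.4, 19.0, 9.44 and 3.06 CPM in Pon2-/- replicates 1 to 6. Samples with high and low values occurred in both genotypes. Per kb of exon, Cox4i2 took 1.08% to 7.44% of the counts of both Cox4i genes in WT and 0.816% to 5.82% in Pon2-/- HSCs, and 0.566% to 4.02% and 0.427% to 3.12% per kb of the main transcript. Its log2 fold change was -0.49 with an interval from -2.13 to 1.15 that includes a 2-fold change in both directions. None of the 50-base windows of Cox4i2 occurred in another gene.

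Subunits Va and Vb are encoded by Cox5a, known to bind a thyroid hormone metabolite, and by Cox5b, which holds a zinc ion on the matrix side. Cox5b was at 324, 262, 279.8, 352, 381 and 394 CPM in WT replicates 1 to 6 and at 255, 245, 232, 245, 306 and 305 CPM in Pon2-/- replicates 1 to 6. WT replicates 1, 4, 5 and 6 were above all Pon2-/- samples, while Pon2-/- replicates 5 and 6 were above WT replicates 2 and 3. The log2 fold change of Cox5b was -0.33 (SE 0.14, edgeR unadjusted p = 0.032, adjusted p = 1.0), and the adjusted p of DESeq2 was 0.332. Cox5b therefore did not pass the test across all genes. Of its 50-base windows, 25.9% occur in transcripts of other genes.
Cox5a was at 86.1 to 124 CPM in WT and at 52.6 to 148 CPM in Pon2-/- HSCs, a wider range in Pon2-/- HSCs that included all WT samples. Per kb of transcript, Cox5a (161 ± 25.9 CPM in WT HSCs, SD, n = 6) was counted at a lower level than Cox5b (384 ± 61.9). Both subunits occur once per enzyme. For Cox5a, 32.0% of the 50-base windows occur in other genes and 269 of 2101 exonic bases are shared with Gm26631.

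The subunits VIa and VIb lie at the contact between the monomers of the cytochrome oxidase dimer, and VIb faces cytochrome c. Cox6a1, the form of subunit VIa outside muscle, was at 445 to 578 CPM in WT (median 527) and at 367 to 501 CPM in Pon2-/- HSCs (median 463). The medians differed, but the ranges overlapped between 445 and 501 CPM. The log2 fold change was -0.22 (SE 0.12, edgeR unadjusted p = 0.083, adjusted p = 1.0). With DESeq2, Cox6a1 had an unadjusted p of 0.0387 and an adjusted p of 0.606. No count of the muscle form Cox6a2 was found.
Cox6b1 was at 349 to 533 CPM in WT (median 416) and at 393 to 476 CPM in Pon2-/- HSCs (median 436), and the WT range included all Pon2-/- samples. Cox6b2, known as the form of testis, was counted in all samples, at 40.1, 24.1, 21.6, 62.7, 23.1 and 33.7 CPM in WT replicates 1 to 6 and at 24.4, 46.3, 70.3, 68.2, 41.4 and 47.8 CPM in Pon2-/- replicates 1 to 6. In Pon2-/- HSCs, 5 of 6 samples were above 5 of 6 WT samples, while WT replicate 4 and Pon2-/- replicate 1 lay within the other group. The log2 fold change of 0.54 (SE 0.39, interval -0.29 to 1.37) was the highest of the 31 genes and did not pass the test (edgeR unadjusted p = 0.185, adjusted p = 1.0). Per kb of exon, Cox6b2 took 2.69% to 7.15% of the counts of both Cox6b genes in WT and 3.35% to 10.3% in Pon2-/- HSCs. Per kb of the main transcript, these shares were 5.44% to 13.8% and 6.73% to 19.2%. Its transcript shares no 50-base window with an annotated transcript of another gene, Cox6b1 included.
Cox6c, a small subunit of the membrane part, was at 173 to 347 CPM in WT and at 210.2 to 311 CPM in Pon2-/- HSCs, without a difference in mean (log2 fold change 0.00, interval -0.36 to 0.36). Cox6c2 is 97.0% identical to Cox6c over 231 bases and was at 0.0807 to 0.739 CPM, with 30 counts over all WT and 52 counts over all Pon2-/- samples, and it was not tested.

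Subunit VIIa has 2 paralogs and a related protein. Cox7a2, the form found in most tissues, was at 204 to 312 CPM in WT (median 238) and at 200.3 to 373 CPM in Pon2-/- HSCs (median 245). Cox7a1, the form of heart and skeletal muscle, had counts in 3 of 6 samples of each genotype, with 0, 0, 4.60, 0.939, 2.47 and 0 CPM in WT replicates 1 to 6 and 2.09, 0.992, 0, 0, 2.54 and 0 CPM in Pon2-/- replicates 1 to 6. These low values did not separate the genotypes (log2 fold change -0.50, interval -4.08 to 3.07), and without WT replicate 3 the log2 fold change was 0.46.
Cox7a2l codes for SCAFI, a protein that joins cytochrome oxidase to complex III in supercomplexes and of which C57BL/6J mice are known to carry a short form. It was at 180.3 to 289 CPM in WT (median 222) and at 177 to 282 CPM in Pon2-/- HSCs (median 208). Per kb of exon, Cox7a2l took 26.9% to 45.7% of the counts of the 3 Cox7a genes in WT and 30.5% to 37.7% in Pon2-/- HSCs, and all Pon2-/- samples were within the WT range.
The remaining membrane subunits had single forms in HSCs. Cox7b, on chromosome X, was at 187 to 323 CPM in WT (median 234) and at 147 to 292 CPM in Pon2-/- HSCs (median 227), without counts for its testis paralog Cox7b2. Cox7c was at 131 to 194 CPM and 116 to 189 CPM, and 53.0% of its 50-base windows occur in other genes. Cox8a was at 383 to 508 CPM in WT (median 440.2) and at 320.4 to 504 CPM in Pon2-/- HSCs (median 431), and it was the only Cox8 gene with counts. The log2 fold changes were -0.14 for Cox7b, -0.05 for Cox7c and -0.11 for Cox8a, each with an interval within a 2-fold change.

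The F1 part of ATP synthase holds the catalytic sites between the α and β subunits, and the γ, δ and ε subunits form the rotor shaft. Atp5b (β), on chromosome 10, had the most counts of all members, with 1023 to 1858 CPM in WT (median 1389) and 950.4 to 1671 CPM in Pon2-/- HSCs (median 1421). Its log2 fold change was 0.00 (interval -0.37 to 0.36). Atp5a1 (α) was at 637 to 909.7 CPM in WT (median 835) and at 594 to 1624 CPM in Pon2-/- HSCs (median 797). The wide range in Pon2-/- HSCs came from replicates 2 (1131 CPM) and 3 (1624 CPM), while the other 4 samples were between 594 and 803 CPM. The coefficient of variation of Atp5a1 was 11.9% in WT and 40.6% in Pon2-/- HSCs, with a log2 fold change of 0.19 (SE 0.22). Without Pon2-/- replicate 3, it was -0.04.
The α and β subunits occur in equal number in the enzyme. Per kb of transcript, Atp5b was at 716 ± 149 CPM and Atp5a1 at 333 ± 39.8 CPM in WT HSCs (SD, n = 6), and the lowest Atp5b sample (534) was above the highest Atp5a1 sample (368). Per kb of exon, the levels were closer, at 324 ± 67.2 and 263 ± 31.4 CPM, and their spreads overlapped. Of the single-copy subunits of the shaft, Atp5e (ε) was at 788 ± 146, Atp5c1 (γ) at 412 ± 61.2 and Atp5d (δ) at 392 ± 32.6 CPM per kb of transcript. The levels of Atp5c1 and Atp5d did not differ beyond their spread by this length. Per kb of exon, Atp5c1 was highest of these at 252 ± 37.4, with Atp5d at 189 ± 15.8 and Atp5e at 189 ± 35.0 CPM. The spreads of Atp5c1 and Atp5d then did not overlap. The log2 fold changes between the genotypes were -0.07 for Atp5e, 0.04 for Atp5c1 and -0.01 for Atp5d.

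The c subunits form the ring in the membrane that turns with the proton flow. Atp5g1, Atp5g2 and Atp5g3 code for the same mature protein with different import signals, so that their shares in a sample show which gene supplies the transcripts, independent of the scaling between samples. Atp5g1 was at 161 to 312 CPM in WT (median 221) and at 169.9 to 254 CPM in Pon2-/- HSCs (median 219). Atp5g2 was at 24.4 to 41.4 CPM (median 30.3) and at 24.7 to 47.5 CPM (median 29.7), and Atp5g3 at 209 to 301 CPM (median 241) and at 236 to 309.8 CPM (median 266). The genotypes overlapped in each gene.
Per kb of exon, Atp5g3 took 63.4% ± 5.85 of the counts of the 3 genes in WT and 65.8% ± 4.44 in Pon2-/- HSCs (SD, n = 6 each), Atp5g1 25.8% ± 5.18 and 23.7% ± 2.74, and Atp5g2 10.8% ± 2.52 and 10.5% ± 2.92. The differences between the genotypes, in percentage points, were 2.45 for Atp5g3 (two-sided exact permutation test, p = 0.446, adjusted over the 3 genes p = 0.740), -2.14 for Atp5g1 (exact p = 0.494, adjusted p = 0.740) and -0.31 for Atp5g2 (exact p = 0.831, adjusted p = 0.831). A p of 0.00216 is the smallest possible with 6 samples per group. The order of Atp5g1 and Atp5g3 in WT HSCs depended on the length used. Per kb of the main transcript, an alternative chosen after seeing the data, Atp5g1 took 47.2% ± 6.32 and Atp5g3 43.6% ± 6.26 in WT HSCs, and Atp5g1 44.7% ± 3.74 and Atp5g3 46.2% ± 4.59 in Pon2-/- HSCs (SD, n = 6 each), so that both genes overlapped in their spread. The differences between the genotypes rested largely on WT replicate 5, in which Atp5g1 had its highest share (35.6% per kb of exon), since without this sample they were -0.18 points for Atp5g1 and 0.53 points for Atp5g3. Without WT replicate 2, they were -3.28 and 3.96 points. Atp5g2 had the lowest share by both lengths, and all of its 50-base windows (100%) occur in transcripts of other genes. For Atp5g1, these were 66.0%, and for Atp5g3 0%. A copy of Atp5g2 that is 100% identical over 441 bases, Gm10175, and other copies had 344 counts in all samples together, compared with 4557 counts for the copies of Atp5g1. The Atp5g2 copy Gm47852 is not among the genes of the data and is left out of this sum. The part of such copies in the shares was not tested.

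**Figure D3:**
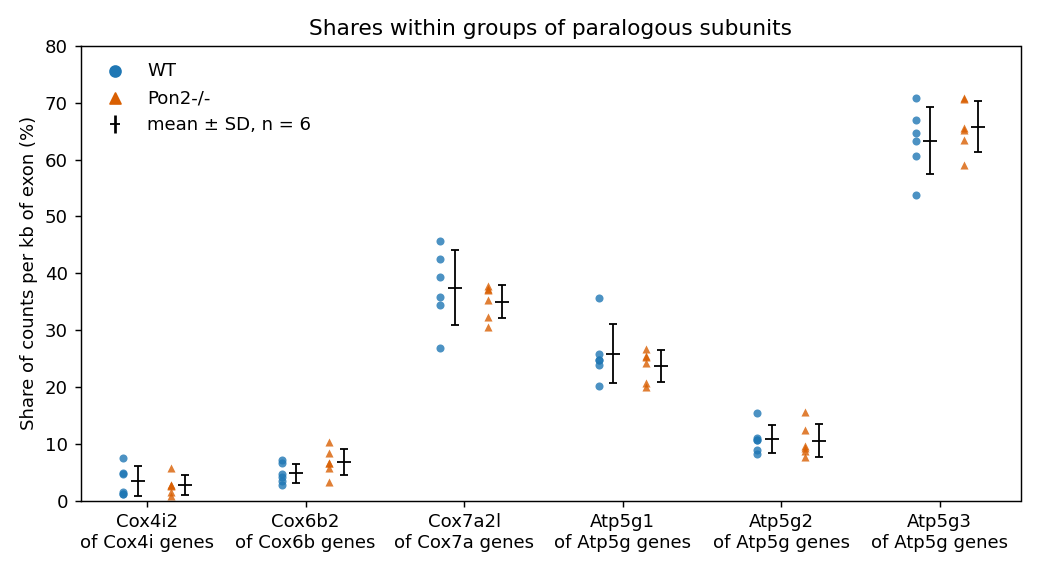
Share of the counts per kb of exon that 6 genes took within their group of paralogs, for single samples of WT (circles) and Pon2-/- HSCs (triangles) with mean ± SD (n = 6 each). Atp5g3 was above 50% in all samples by this length, Cox4i2 and Cox6b2 stayed at or below 10.3% by this length (Cox6b2 reaches 19.2% per kb of the main transcript), and the genotypes overlap in all 6 genes.

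The peripheral stalk holds the F1 part against the turning ring and consists of the subunits b (Atp5f1), d (Atp5h), F6 (Atp5j) and OSCP (Atp5o). Atp5j was at 358 to 564 CPM in WT (median 445) and at 383 to 506 CPM in Pon2-/- HSCs (median 402), with the Pon2-/- samples within the WT range. Its log2 fold change was -0.17 (SE 0.13, edgeR unadjusted p = 0.231, adjusted p = 1.0). Of its 3130 exonic bases, 397 are shared with the neighbouring gene Gabpa, and without strand information reads from these bases cannot be told apart. Atp5f1, Atp5h and Atp5o were between 245 and 476 CPM in WT and between 253 and 469.9 CPM in Pon2-/- HSCs, with log2 fold changes of -0.08, 0.02 and -0.07. Atp5h and Atp5j had the highest levels per kb of transcript in this group, at 610.4 ± 81.3 and 579 ± 98.8 CPM in WT HSCs, and by this length did not differ beyond their spread. Per kb of exon, Atp5h was at 260 ± 34.7, Atp5o at 182 ± 36.1 and Atp5j at 150 ± 25.5 CPM. By exon length, the spreads of Atp5h and Atp5j did not overlap. Atp5o (428 ± 85.1) overlaps with other genes in 945 of 1972 exonic bases, and 50.3% of its 50-base windows occur elsewhere.

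Small subunits of the membrane part include f (Atp5j2), e (Atp5k), g (Atp5l) and the protein of Atp5mpl. Atp5j2 was at 172 to 345 CPM in WT and at 266 to 337 CPM in Pon2-/- HSCs, Atp5mpl at 155 to 222 CPM and 107 to 232 CPM, and Atp5k at 79.5 to 121 CPM and 76.8 to 132 CPM. In all of them, the genotypes overlapped. Atp5l differed from the other ATP synthase subunits in level and spread, with 16.3, 6.23, 0.807, 0.548, 1.52 and 34.9 CPM in WT replicates 1 to 6 and 0.359, 13.2, 1.19, 0.763, 13.5 and 12.02 CPM in Pon2-/- replicates 1 to 6. Both genotypes had 3 samples at or below 1.52 CPM and 3 samples at 6.23 CPM or more. The coefficient of variation was 135% in WT and 97.5% in Pon2-/- HSCs, and the log2 fold change was -0.56 with an interval from -3.17 to 2.06.
Per kb of transcript, Atp5l was at 18.5 ± 25.0 CPM in WT HSCs, compared with 284 ± 43.8 for Atp5k, the subunit next to it in the enzyme. The counts of its copies came to 325 in all samples together, without Gm9391, which is not among the genes of the data. As shown above, most of the Atp5l transcript is identical in other genes, and STAR's gene counts leave out reads that align equally well to several places. Atp5s, no subunit of the enzyme, was at 20.6 to 119 CPM in WT and at 36.6 to 117 CPM in Pon2-/- HSCs. Its 50-base windows are not found in other genes.
A high share of windows in other genes did not always go with a low level. Cox7c (53.0%), Atp5h (50.5%) and Atp5o (50.3%) were at 274, 610.4 and 428 CPM per kb of transcript in WT HSCs, while Cox4i2 and Cox7a1, with no shared window, were at 19.1 and 3.39 CPM. For 11 of the 36 genes, at least 1 other gene met the limits of 90% identity over 50% of the length. The part of shared sequence in the level of any of these genes was not tested.

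**Figure D4:**
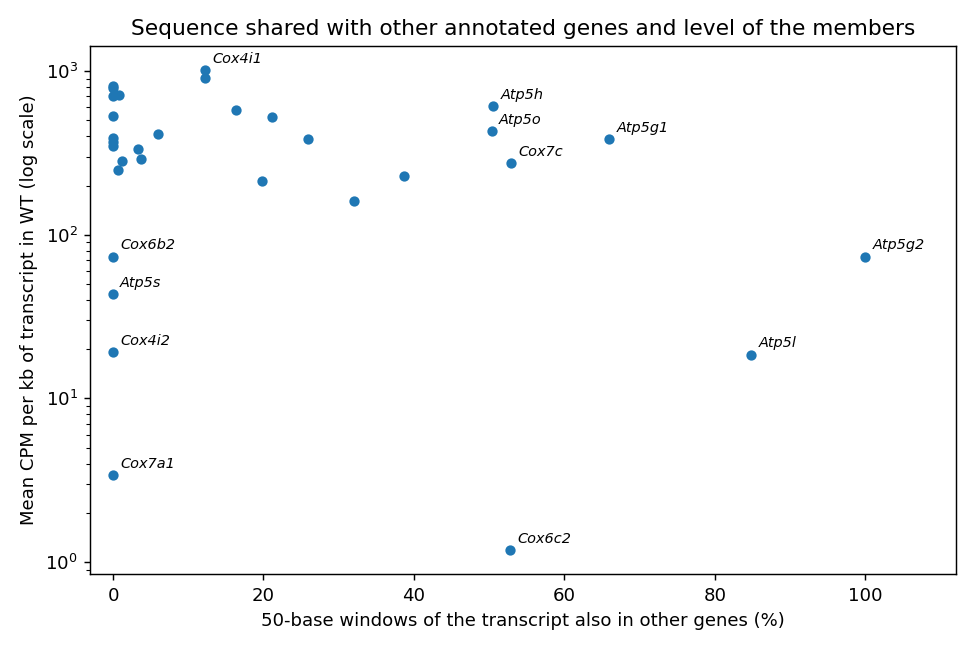
Mean CPM per kb of the main transcript in WT HSCs (log scale, n = 6) of the 32 Cox and Atp5 genes with counts, against the percentage of 50-base windows of that transcript also found in other annotated genes. Atp5l (84.8%, 18.5 CPM) and Atp5g2 (100%, 73.5 CPM) lie at the right at low levels, and Cox4i2, Cox7a1, Cox6b2 and Atp5s are low with no shared window.

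The subunits of both enzymes from the mitochondrial genome were counted unequally. mt-Co1, the catalytic subunit of cytochrome oxidase, was at 5856 to 7422 CPM in WT (median 6519) and at 5950 to 9702 CPM in Pon2-/- HSCs (median 7839). The samples overlapped, with Pon2-/- replicates 1, 4 and 6 above all WT samples, and the log2 fold change was 0.24 (SE 0.12, edgeR unadjusted p = 0.063, adjusted p = 1.0). mt-Co3, mt-Atp6 and mt-Atp8 had 0 counts in all samples, and mt-Co2 had a single count in 2 samples. Of their 50-base windows, 100% (mt-Co2), 99.9% (mt-Co3) and 99.5% (mt-Atp6) occur in other annotated genes, compared with 51.1% for mt-Co1 and 0% for mt-Atp8. The levels of these genes were not read from such counts, and only mt-Co1 of the 5 genes was tested (0 called by edgeR or DESeq2, 0 at an unadjusted p below 0.05).
The 18 protein coding nuclear Cox genes summed to 3482 to 4094 CPM in WT (3773 ± 293, SD, n = 6) and to 3166 to 3783 CPM in Pon2-/- HSCs (3541 ± 241). The ratio of mt-Co1 to this sum was 1.53 to 2.10 in WT and 1.64 to 3.06 in Pon2-/- HSCs. The highest ratios, 3.06 and 2.59, belonged to Pon2-/- replicates 4 and 6, in which mitochondrial genes took 8.87% and 9.55% of all counts, compared with 4.89% to 8.54% in the other samples. These samples also had the lowest sums of Atp5 genes, with 5384 and 5085 CPM, compared with 5461 to 7577 CPM in the other samples. The part of the mitochondrial share in these values was not tested. No sum was given a test, since the scaling makes mitochondrial and nuclear values of a sample depend on each other.

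**Figure D5:**
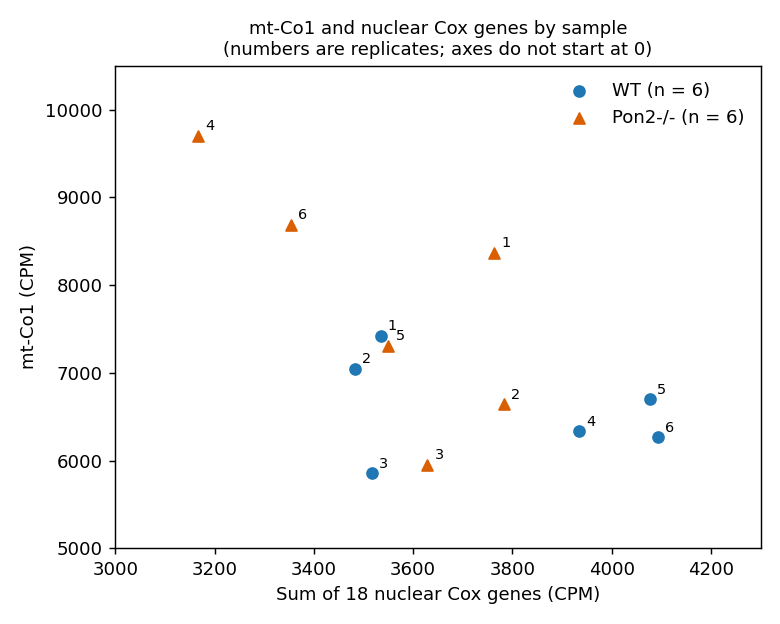
mt-Co1 (CPM) against the sum of the 18 protein coding nuclear Cox genes (CPM) in single samples of WT (circles) and Pon2-/- HSCs (triangles), with replicate numbers and axes that do not start at 0. Pon2-/- replicates 4 and 6 combine the lowest nuclear sums (3166 and 3354 CPM) with mt-Co1 values of 9702 and 8686 CPM. Pon2-/- replicate 1 (8368 CPM) also lies above all WT samples in mt-Co1, and the other samples of both genotypes overlap.

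Factors that act on both enzymes were compared in the same fit. Of 25 genes for accessory proteins and assembly of cytochrome oxidase, 21 were tested. edgeR and DESeq2 called 0 of them, and edgeR gave 1 at an unadjusted p below 0.05. This gene was Ndufa4, which codes for a protein first assigned to complex I and now known as part of cytochrome oxidase, with 346 to 550.1 CPM in WT and 272 to 382 CPM in Pon2-/- HSCs (log2 fold change -0.32, SE 0.14, edgeR unadjusted p = 0.035, adjusted p = 1.0). Cox10, which makes the heme of the enzyme together with Cox15, was at 27.6 to 85.9 CPM in WT and at 7.21 to 39.2 CPM in Pon2-/- HSCs. It did not pass the test (log2 fold change -1.04, SE 0.49, edgeR unadjusted p = 0.054, adjusted p = 1.0). The median log2 fold change of the 21 genes was -0.06.
Of 6 genes for assembly and regulation of ATP synthase, edgeR and DESeq2 called 0, with 0 at an unadjusted p below 0.05 by edgeR. Atpif1, the inhibitor that blocks the reverse reaction of the enzyme, had means of 391 (WT) and 380.1 CPM (Pon2-/-) (log2 fold change -0.04, SE 0.12). Fmc1, an assembly factor of the F1 part, had the lowest unadjusted p of them (log2 fold change -0.34, SE 0.24).
Of 11 regulators of mitochondrial biogenesis, edgeR and DESeq2 also called 0, with 0 at an unadjusted p below 0.05 by edgeR. Tfam, which packs and transcribes mitochondrial DNA, had means of 127 (WT) and 86.6 CPM (Pon2-/-) (log2 fold change -0.55, SE 0.35). Gabpa, whose letters were searched in the promoter windows, had 22.3 and 41.5 CPM (log2 fold change 0.90, SE 0.58), and Nrf1 44.5 and 46.6 CPM (log2 fold change 0.07, SE 0.44). Ppargc1a, a coactivator of both, had 3.12 and 15.1 CPM with an SE of 2.09. The median interval of these regulators reached 1.15 to either side on the log2 scale, compared with 0.36 for the Cox and Atp5 genes.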

How the data were processed

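RNA-seq counts of HSCs of 6 WT and 6 Pon2-/- mice were used. The authors checked reads with FastQC, trimmed adapters with Trimmomatic 0.36, mapped them to GRCm38.p5 (GENCODE M12) with STAR 2.5.3a and counted reads per gene. The values are whole-number counts as deposited, without normalization, and whether the column is unstranded is not stated. Symbols and positions were taken from GENCODE M21 (49326 genes). Differential expression was computed with edgeR 4.0.16 in R 4.3.3 (TMM, filterByExpr, quasi-likelihood F-test, genotype as the only term, Benjamini-Hochberg over all tested genes, FDR below 0.05 and absolute log2 fold change above 1). CPM use TMM-scaled totals. Alternatives were DESeq2 1.42.0 and its size factors, limma 3.58.1 voom with quality weights, other filters, a replicate block and leaving out each sample. The procedure was tested on simulated data. Same-numbered samples were not treated as pairs. The main transcript was the shortest coding one of the best APPRIS and support class, and copies were found with minimap2 2.31-r1302. The members and lists were chosen with earlier results of these data known. Described with full values were the 3 members with the highest mean CPM, all paralogs with counts and the 5 members with the smallest p, and up to 5 genes of each other list. Cox5a, Cox6c, Cox7c, Cox6c2, Atp5l and Nrf1 were added for context. P-values measure the spread between mice. The result of 1 marker list is not reported here.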

Additional observations from a re-analysis of the deposited data

Results flagged for a closer look

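Among 62 groups (31 genes in each genotype), the lowest or highest sample lay apart from the other 5 by Dixon's 95% criterion in 3 groups, and chance alone gives about 1 in 20 groups. Atp5a1 was lowest in WT replicate 2 with 637 CPM, compared with 827 to 909.7 CPM in the other WT samples. Atp5j was highest in Pon2-/- replicate 1 with 506 CPM, compared with 383 to 420.3 CPM in the other Pon2-/- samples. Atp5h was lowest in Pon2-/- replicate 2 with 260.4 CPM, compared with 389 to 469.9 CPM in the other Pon2-/- samples.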

How the results depend on the processing

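Under all alternatives and after leaving out each sample in turn, 0 of the Cox and Atp5 genes and 0 genes of the other lists were called. The median log2 fold change of the members ranged from -0.11 to -0.01 and their lowest adjusted p from 0.289 to 1.0. The number of genes called over the whole table was 8 without a filter beyond 1 count, 304 with DESeq2 and 5 with a replicate block, compared with 24, and it was between 20 and 28 when 1 sample was left out. The cause was not tested. Same-numbered samples did not deviate together (correlations from 0.00093 to 0.043, and only WT replicate 2 correlated best with its own number), so the replicate block does not rest on a known pairing. The difference in the Atp5g2 share (-0.31 points) ranged from -1.31 to 0.623 without single samples and turned positive when WT replicate 1 was left out (0.623) and when replicate 1 (0.271) or 5 (0.049) of the Pon2-/- mice was, with no p below the threshold. The differences of Atp5g1 and Atp5g3 kept their sign and ranged from -3.28 to -0.18 and from 0.53 to 3.96 points without single samples. When 1 sample was left out, between 2 and 8 of the 31 log2 fold changes changed sign. The wide intervals of Cox4i2, Cox7a1 and Atp5l leave differences of 2-fold in these genes undetectable at this depth and spread. The interval of Cox6b2 (-0.29 to 1.37) also includes a 2-fold rise in Pon2-/- HSCs.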
